A study of Drosophila melanogaster with 3 samples.

Results

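The genes described here pattern the appendages of Drosophila melanogaster: the legs, wings, antennae and mouthparts. They are tsh, dac, Dll, al, ss, rn, bab1, bab2, ap and salm, 10 of the 13945 protein-coding genes of the annotation. They were chosen for their known function, with earlier results of these data known. Binding of the Hox protein proboscipedia (pb) was mapped by chromatin immunoprecipitation and sequencing in whole embryos of 0 to 24 h, with males and females pooled, from a stable transgenic line whose pb carries a C-terminal green fluorescent protein (GFP) tag. Chromatin sheared to 200 to 800 bp was recovered through that tag with an anti-GFP antibody, and all 3 libraries are biological replicates of that line, so the data hold 1 group and no contrast. The labels do not say which promoter drives the fusion, and neither a library without the tag nor the control was analysed here, so recovery that depends on pb cannot be told apart from other recovery. No expression was measured, so the cells that contributed cannot be checked against markers. Regions below are entries of the deposited lists, each placed by its summit and ranked by the authors' signal value, with rank 1 the strongest. The libraries and the combined list have 30000 regions each, and the list thresholded on the irreproducible discovery rate holds the strongest 9.13% of the combined list. A region was counted for a gene when its summit lay in the gene body or when that gene had the nearest start site. Read depth is unknown. With 3 samples in 1 group an exact two-sided sign-flip test cannot go below p = 0.25, so no test is given, and differences are set against the spread of the 3 libraries.

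The genes divide the developing limb along its length. tsh marks the proximal part next to the body wall, dac the middle, and Dll the distal part, while al, ss, rn, bab1 and bab2 act towards the tip, and ap and salm are best known from the wing. pb, together with the Hox gene Scr, makes the labial appendage into the adult proboscis, and without pb the labial palps develop as legs. Homeodomain proteins such as pb recognise short AT-rich sites around TAAT, and Hox proteins bound together with the cofactor exd prefer longer sites such as TGATNNAT. The reference sequences at the summits of 4 regions are shown as examples of a promoter, an intron and intergenic sites: the tsh region beyond the gene's 3′ end, the dac region upstream of its start, the bab1 region in an intron, and the strongest salm region, which fell outside the thresholded list. Each is the 201 bases centred on the summit, from the plus strand of dm6, at chr2L:21846466-21846666 for tsh, chr2L:16486441-16486641 for dac, chr3L:1097088-1097288 for bab1 and chr2L:11452997-11453197 for salm. Capitals mark matches on either strand to any of 7 motifs (the homeodomain core TAAT, its palindromic form TAATTA, which contains TAAT, the Hox and exd motif TGATNNAT, the GAGA factor motif GAGAG, the Zelda motif CAGGTAG, the DREF motif TATCGATA and the M1BP motif GGTCACA), and matches may overlap.
tsh: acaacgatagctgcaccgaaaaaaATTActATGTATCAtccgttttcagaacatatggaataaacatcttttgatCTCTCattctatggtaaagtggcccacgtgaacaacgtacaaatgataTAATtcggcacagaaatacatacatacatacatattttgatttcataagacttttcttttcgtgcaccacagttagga
dac: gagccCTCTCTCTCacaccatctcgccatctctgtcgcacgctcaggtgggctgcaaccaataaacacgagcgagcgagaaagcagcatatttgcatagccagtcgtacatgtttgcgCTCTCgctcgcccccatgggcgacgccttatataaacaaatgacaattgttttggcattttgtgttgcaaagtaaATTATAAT
bab1: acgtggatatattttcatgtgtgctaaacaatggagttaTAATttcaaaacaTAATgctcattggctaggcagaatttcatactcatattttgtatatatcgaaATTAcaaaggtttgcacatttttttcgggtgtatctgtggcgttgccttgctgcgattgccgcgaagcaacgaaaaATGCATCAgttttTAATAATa
salm: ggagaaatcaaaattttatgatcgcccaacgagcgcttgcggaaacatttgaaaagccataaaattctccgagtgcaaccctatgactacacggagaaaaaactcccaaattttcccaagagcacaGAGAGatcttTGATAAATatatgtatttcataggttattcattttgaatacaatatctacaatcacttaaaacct
The tsh window held 2 TAAT, 1 TGATNNAT and 1 GAGAG, the dac window 2 TAAT and 4 GAGAG with overlapping copies counted, the bab1 window 5 TAAT and 1 TGATNNAT, and the salm window 1 TGATNNAT and 1 GAGAG but no TAAT.

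A thresholded pb-GFP peak was assigned to 5 of the 10 genes: tsh, dac, Dll, bab1 and bab2. Each had 1 peak. By the same rule 2240 of the 13945 protein-coding genes, or 16.1%, had a thresholded peak. The appendage genes lie in long stretches of sequence: the territory in which a summit would be assigned to the gene had a median of 42.2 kb, against 5.21 kb for all protein-coding genes. Of the 1930 genes whose territory was no shorter than that of dac, the shortest here, 34.5% had a thresholded peak. The 5 peaks stood at ranks 1039 (dac), 1450 (tsh), 1867 (Dll), 2351 (bab1) and 2484 (bab2), so only that of dac lay above the median rank of the list. All 5 were found within 100 bp in each of the 3 libraries, as were 88.4% of all thresholded peaks. When peaks had to rank within the length of the thresholded list in 2 libraries, leaving out replicate 1, 2 or 3, tsh and dac alone had a peak each time, and 10.5%, 9.62% and 10.5% of protein-coding genes had one. Of the other genes, salm (rank 3340) and al (rank 3525) had their strongest region within the first 5000 of the combined list, where 24.8% of protein-coding genes have one, and ap (5397), ss (11386) and rn (11989) did not. All 10 genes had a region somewhere in the combined list, as did 71.1% of protein-coding genes.

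**Figure D1:**
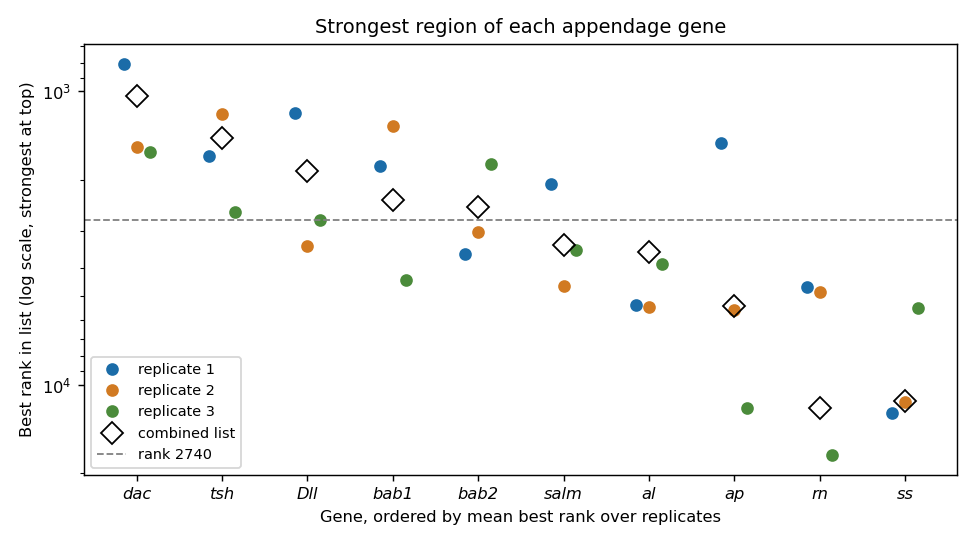
Best rank of each gene in the 3 replicate lists (filled circles) and in the combined list (open diamonds), on a log scale with the strongest at the top, and with a dashed line at the last rank of the thresholded list. dac and tsh lie above the line in all 3 libraries, and al, rn and ss lie below it in all 3.

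tsh, which encodes a zinc finger protein that gives proximal limb and trunk identity, was led by a region outside the gene. Its thresholded peak at 2L 21846361 to 21846770 (dm6) lay 17973 bp downstream of the start site and 9555 bp beyond the 3′ end, in intergenic sequence with the next protein-coding gene, CG11629, 50100 bp further on. It was ranked 1660, 1199 and 2634 in replicates 1 to 3, a mean of 1831 ± 733 (SD, n = 3). The start site of tsh had a region of its own, 15 bp downstream at rank 3073 of the combined list, just outside the thresholded list. That start-site region was ranked 9134, 2867 and 2577 in replicates 1 to 3, so in replicate 3 it stood above the distal region and in the other two libraries below it. The paralogue tio, which can replace much of tsh function, had 2 thresholded peaks, at rank 957 in its 3′ UTR and at rank 2273, 113 bp upstream of its start. The 182.2 kb between the gene bodies held 3 thresholded peaks: that of tsh, the upstream peak of tio, and the strongest, at rank 182, which lay nearest to the start of neither.

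dac, a nuclear protein gene needed for the middle segments of the leg, had the strongest peak of the set. It lay at 2L 16486336 to 16486745, 543 bp upstream of the start site, and was ranked 806, 1550 and 1608 in replicates 1 to 3 (mean 1321.3 ± 447, SD, n = 3). It led the dac regions in every library. The next dac region, in a coding exon 1622 bp downstream of the start, did not repeat in this way, with ranks 1650 and 5384 in replicates 1 and 2 and no match in replicate 3. Coding exons held 21.4% of all regions of replicate 1, 12.1% of those of replicate 2 and 8.75% of those of replicate 3.

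The homeobox gene Dll, the selector of distal limb identity, had its peak at the promoter. The summit lay 66 bp upstream of the start site, in a peak at 2R 24814551 to 24814960, and was ranked 1189, 3377 and 2747 in replicates 1 to 3 (mean 2437.7 ± 1126, SD, n = 3). It was the leading Dll region in all 3 libraries, although replicate 1 was the one library in which it ranked within the length of the thresholded list. A region 1035 bp upstream was ranked 2892 in replicate 3 and had no match in the other two. The 201 bases at the promoter summit were 65.2% G and C, against a median of 39.3% over all thresholded summits, and held none of the 7 motifs.

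al, a homeobox gene of the pretarsus and the arista, also had its strongest region at the start site, below the threshold. The region at 2L 377879 to 378288 has its summit 28 bp upstream, and was ranked 5351, 5445 and 3884 (mean 4893.3 ± 875, SD, n = 3). It led in each library, as those of dac and Dll did, and in no other member did the same region lead all 3 lists.

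bab1 and bab2, neighbouring genes for BTB domain proteins that shape the tarsal segments, held many regions spread over the locus. Together they took 41 of the 104 regions of the 10 genes in the combined list, and 41, 43 and 37 in replicates 1 to 3. In the combined list 18 lay in the 64.7 kb of bab1, 11 in the 36.8 kb of bab2, 11 in the 39.3 kb between them and 1 outside. The thresholded bab1 peak lay in an intron 3901 bp downstream of the start (3L 1096983 to 1097392). It was ranked 3876, 1312 and 6139 in replicates 1 to 3, a mean of 3775.7 ± 2415 (SD, n = 3), and led the bab1 regions in replicate 2 only. In replicate 1 the lead was another site of bab1, 2480 bp downstream (rank 1801), and in replicate 3 it was an intergenic site 36655 bp upstream (rank 4380). That intergenic site lay nearer to the 3′ end of bab2 than to the bab1 body, and was counted for bab1 by its nearest start site. The start site of bab1 itself held only weak regions, with best ranks of 11244, 11619 and 9032 within 1000 bp of it.

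The bab2 peak lay in the 5′ UTR, 61 bp from the start site (3L 1177010 to 1177419). Its ranks of 3593, 3028 and 3429 gave a mean of 3350 ± 291 (SD, n = 3), the smallest SD of the 5 peaks. It was the lead in replicates 1 and 2. In replicate 3 an intron site 10148 bp downstream stood higher, at rank 1768. The combined-list region there, 10119 bp downstream at rank 4052, had ranks of 26918, 9156 and 1768 in the 3 libraries. The region just outside the threshold, at rank 3050, lay 827 bp beyond the 3′ end of bab2 and was ranked 4059, 4937 and 10872. The promoter peak of bab2 thus varied less between libraries than the intron site at rank 4052 and the 3′ site at rank 3050 did. This cannot be said of every intron site. The combined-list region 10852 bp downstream (rank 4963) was matched at ranks 29218, 3793 and 4134 in replicates 1 to 3. In replicate 1 a stronger intron region, 11032 bp downstream at rank 3675, lay beyond the match distance. If that region is the same site, its ranks of 3675, 3793 and 4134 were also close together.

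**Figure D2:**
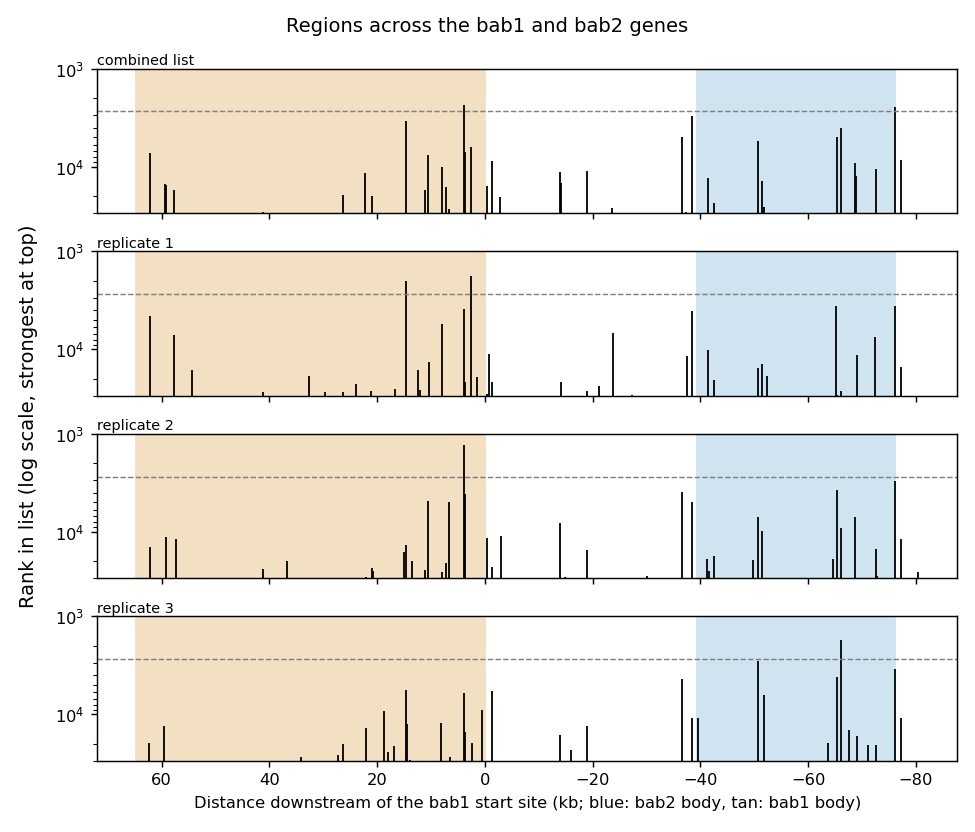
Regions across the bab1 and bab2 genes in the combined list and in replicates 1 to 3, as distance from the bab1 start site in kb against rank on a log scale (strongest at the top), with the bab1 body in tan, the bab2 body in blue and a dashed line at the last thresholded rank. The bab2 start-site region, at the outer edge of the blue band, recurs at ranks 3593, 3028 and 3429, while the strongest bab1 site differs between the 3 libraries.

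ss and rn, the other tarsal regulators, had the weakest leads. ss encodes a bHLH-PAS protein that directs antennal and tarsal identity. Its best region in the combined list, 40 bp downstream of a start site at rank 11386, was matched in replicate 3 only, at rank 5470. Replicate 2 also listed a start-site region, 62 bp upstream at rank 15634, beyond the match distance of 100 bp. The ss lead was an intergenic site 6084 bp upstream in replicate 1 (rank 12490) and an intron site in replicate 2 (rank 11448). rn, a zinc finger gene of the tarsus, led with a coding exon site at rank 4627 in replicate 1, with a site at the start of CG42544, inside the rn body, at rank 4847 in replicate 2, and with an upstream site at rank 17359 in replicate 3. None of these 3 leads was within 100 bp of the rn lead of the combined list. That combined lead, 3374 bp upstream at rank 11989, was matched in all 3 libraries, at ranks 23997, 29762 and 19778.

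ap and salm, patterning genes of the wing, had regions that depended on the library. ap encodes a LIM homeodomain protein that sets dorsal wing identity. Its combined lead at 2R 5726924 to 5727333 (rank 5397), in an intron 297 bp upstream of an internal start site, was ranked 1497 in replicate 1 and 12908 in replicate 3, with no match in replicate 2. An intron site was the ap lead in replicate 2 (rank 5573). salm, a zinc finger gene that places wing veins, had a pair of leading sites. The site 7483 bp upstream (2L 11452892 to 11453301, rank 3340 of the combined list) was ranked 4184 and 3483 in replicates 1 and 3 and had no match in replicate 2. The site 505 bp upstream (rank 4415) was ranked 2069, 4595 and 25624. The paralogue salr likewise had no thresholded peak, with best ranks of 4054, 4867 and 4605 (mean 4508.7 ± 415, SD, n = 3).

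Ordered by mean best rank over the libraries, the genes ran dac (1321.3 ± 447), tsh (1812 ± 701), Dll (2437.7 ± 1126), bab1 (2497.7 ± 1648), bab2 (2796.3 ± 934), salm (3382.3 ± 1266), al (4893.3 ± 875), ap (6346.7 ± 5279), rn (8944.3 ± 7288) and ss (9802.7 ± 3788; SD, n = 3 throughout). A best rank could come from a different region in each library, as it did for bab1. By the ranks of their thresholded peaks, bab2 (mean 3350) stood ahead of bab1 (mean 3775.7). The ranges of every neighbouring pair in the order of best ranks overlapped. The ends of the order did not overlap: dac ranged from 806 to 1608 and ss from 5470 to 12490. Among the strongest regions of each library, taken to the length of the thresholded list, stood 6 of the 10 genes in replicate 1 (tsh, dac, Dll, bab1, ap and salm), 3 in replicate 2 (tsh, dac and bab1) and 3 in replicate 3 (tsh, dac and bab2), a mean of 4 ± 1.73 (SD, n = 3). The same rule called 16.3%, 15.7% and 15.8% of all protein-coding genes. In replicate 3 bab2 stood there through an intron site at rank 1768, and its thresholded peak ranked below that length in every library. In replicate 1 bab1 stood there through sites at ranks 1801 and 2038, with its thresholded peak at rank 3876. tsh and dac were in all 3 libraries, and al, ss and rn in none.

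By position, the regions of the appendage genes lay farther from start sites than regions of the whole lists. In the replicate lists 17.6% ± 2.64 of their regions were within 1000 bp of a start site, against 38.7% ± 3.24 of all regions (SD, n = 3). Introns held 36.9% ± 5.17 against 28.6% ± 3.54, and intergenic sequence 32.8% ± 1.52 against 16.9% ± 1.20. Most of the intron regions, in the combined list and in each library, were those of bab1 and bab2. Without bab1 and bab2 the intron share of the other genes pooled lay below that of all regions in each of these lists. The higher intron share of the pooled regions therefore came from the bab1 and bab2 locus. It was not absent from every other gene: most ap regions and several Dll regions of the combined list were intronic. With all 10 genes counted, the shares of the 3 libraries did not overlap for promoters (14.8% to 20% against 35.9% to 42.3%). Nor did they for intergenic sequence (31.0% to 33.9% against 15.9% to 18.2%) or, narrowly, for introns (31.9% to 42.2% against 24.6% to 31.2%). They did overlap for coding exons (3.33% to 17.2% against 8.75% to 21.4%). The median distance to the nearest start site was 8111 ± 349 bp against 1727 ± 222 bp. These differences go with the length of the territories, and their part in the shares was not tested. The density was close to that of the genome, with 23.4 combined-list regions per 100 kb of the 10 territories against 22.4 over the 6 chromosome arms, while thresholded peaks numbered 11.3 per Mb against 20.5. Among the 5 thresholded peaks, 3 were at promoters (dac, Dll and bab2), 1 was intronic and 1 intergenic; in the whole thresholded list 63.2% were at promoters.

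The genes differed in how many regions they held. bab1 (FBgn0004870), with the longest territory at 102.8 kb, had 28 regions in the combined list and 28, 26 and 23 in replicates 1 to 3. bab2 (FBgn0025525) had 13 in the combined list and 13, 17 and 14 in the libraries, tsh (FBgn0003866) had 12 and 18, 15 and 12, and salm (FBgn0261648) had 11 and 11, 13 and 11. Fewer were found at Dll (FBgn0000157), with 9 in the combined list and 9, 5 and 11 in the libraries, at dac (FBgn0005677), with 8 and 12, 9 and 4, and at al (FBgn0000061), with 8 and 6, 7 and 4. ap (FBgn0267978), rn (FBgn0267337) and ss (FBgn0003513) had 5 each in the combined list, and 7, 6 and 5, 8, 10 and 3, and 4, 7 and 3 in the libraries. Per 100 kb of territory, the combined-list regions were densest at dac (38.9), Dll (38.1) and al (36.2), which have the 3 shortest territories, and sparsest at ss (11.7), rn (12.0) and ap (14.3). The genes with the lowest density were also those with the weakest leads. All 10 together had between 90 and 116 regions in a library of 30000 (mean 107 ± 14.7, SD, n = 3), and 104 in the combined list, and 7 of the 10 genes had their lowest count in replicate 3.

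**Figure D3:**
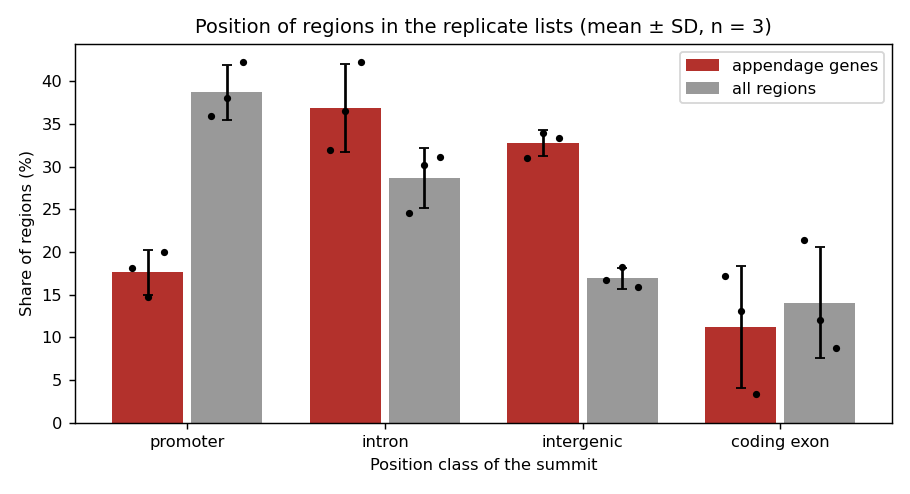
Share of regions by position class in the 3 replicate lists, in percent, for the appendage genes (red) and for all regions (grey), with bars for means, error bars for the SD and points for the libraries. Promoters took 17.6% of the appendage gene regions and 38.7% of all regions.

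**Figure D4:**
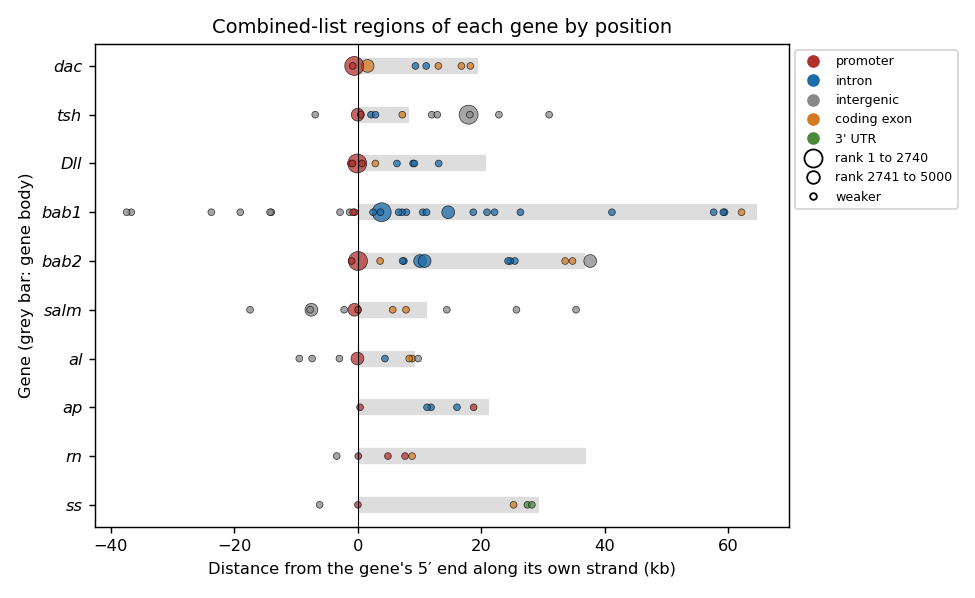
Combined-list regions of each gene by distance from its 5′ end along its strand, in kb, with gene bodies as grey bars, colours for position classes and larger circles for stronger ranks. dac, Dll and bab2 have their thresholded peak at the start site, bab1 has it 3901 bp into the gene, and tsh has it beyond the gene's 3′ end.

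Promoter regions were nonetheless listed for most of these genes. A region within 1000 bp of an own start site was listed for all 10 genes in the combined list, for 9, 10 and 9 in replicates 1 to 3, and for 8 in all 3 libraries. The share of all protein-coding genes with such a promoter region was not computed, so these counts have no like share beside them. A region of any class was in the combined list for 71.1% of protein-coding genes. Agreement between libraries fell along the combined list. Of the 9 regions of these genes at ranks 2741 to 5000, 7 were found in all 3 libraries, against 58.8% of all regions at those ranks. At ranks 5001 to 10000 it was 4 of 17, against 29.4% of all, and at ranks 10001 to 30000 it was 3 of 73, against 2.67%.

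TAAT occurred within 100 bp of 4 of the 5 thresholded summits (not at Dll) and of 83.6% of all thresholded summits, so it does not set these peaks apart. TGATNNAT was found at tsh and bab1, 2 of 5, and at 10.9% of all, and GAGAG at tsh and dac, 2 of 5, and at 28.9% of all. The palindrome TAATTA was not found at the 5 and occurred at 12.3% of all. The Zelda, DREF and M1BP motifs were likewise not found there, and occurred at 0.985%, 4.42% and 3.61% of all. At the strongest regions of the other genes, none held TAAT: al, ap, salm, ss and rn held GAGAG, and salm alone of these held TGATNNAT. These regions lie outside the thresholded list, and motif shares over all regions at their ranks were not computed. Their windows were 52.7% (al), 60.2% (ap), 35.3% (salm), 56.2% (ss) and 62.7% (rn) G and C. The median over all thresholded summits was 39.3%. With 5 peaks and 5 other regions the motif counts are descriptions of single windows.

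Other genes of limb development were read by the same rule, from a list of 34 that takes in signals and regulators of the leg, antenna, head appendages and wing. Of these, 16 had a thresholded peak, where 16.1% of all protein-coding genes and 34.5% of those with long territories had one. Their best combined ranks had a median of 2928, against 2912 for the 10 appendage genes and 14630 over all protein-coding genes. The median territories were 44.9 kb, 42.2 kb and 5.21 kb in that order, so the medians over genes with long and short territories are not like for like. Several had a stronger combined rank than dac. zfh2, a zinc finger homeobox gene on chromosome 4, was ranked 377. dpp, the BMP ligand gene, had a peak at rank 411 in an intron, with best ranks of 332, 449 and 618 in the libraries (mean 466.3 ± 144, SD, n = 3). mid, a T-box gene of the ventral leg, was ranked 584, bs, the serum response factor gene of the wing, 606, and vn, a ligand gene of the EGF receptor, 735. The ranges of dpp, mid, bs and dac over the libraries were 332 to 618, 459 to 754, 550 to 775 and 806 to 1608, so dac did not overlap the other three. vn, with best ranks of 643, 1209 and 658, did overlap dac.

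By role, 3 of 6 signal genes had a thresholded peak (dpp, vn and the Wnt gene wg), as did 8 of 18 regulators of the leg and antenna (hth, tio, C15, Lim1, odd, H15, mid and zfh2), 2 of 3 head appendage genes (disco-r and cnc) and 3 of 7 wing genes (nub, bi and bs). hth, whose product acts with exd as a Hox cofactor, had 2 peaks (best rank 1149). exd had no region in the combined list. Of the 8 Hox genes 7 had a thresholded peak, led by Antp at rank 997 and with pb itself at rank 1900, and Scr had none. The same background shares apply, and the Hox genes too have long territories, with a median of 49.3 kb. Without replicate 1, 2 or 3, the Hox genes with a peak numbered 2, 5 and 4, and the limb genes 11, 11 and 12. In those settings 10.5%, 9.62% and 10.5% of all protein-coding genes had a peak.

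**Figure D5:**
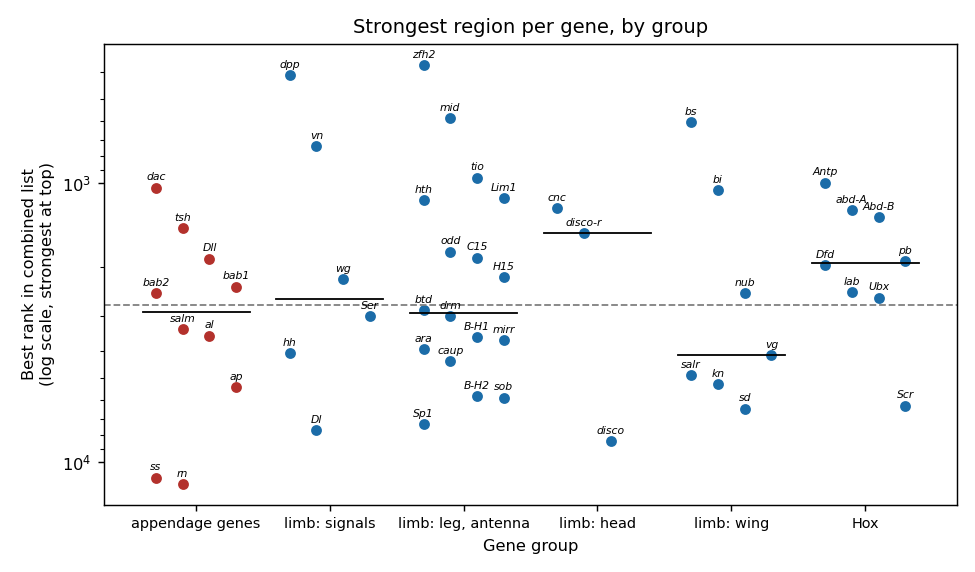
Best rank in the combined list of each appendage gene (red), other limb gene and Hox gene (blue), on a log scale with the strongest at the top, with medians as black lines and a dashed line at the last thresholded rank. exd, which has no region in the list, is not drawn. dpp, zfh2, mid and bs lie above dac, and ss and rn lie lowest among the genes drawn.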

How the data were processed

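The deposited files are peak lists in narrowPeak format on dm6 for 3 replicates, for the replicates combined and for the combined list thresholded on the irreproducible discovery rate. Per the deposited file descriptions, each replicate list was called on that library's alignments and 1 control, and the combined list on all alignments. The deposited signal value is a score per region whose statistic is not stated, and it served only for ranks within a list. The deposited −log10 q has a ceiling reached by every thresholded peak and was not used. Most regions have the same width (410 bp for 98.2% of the combined list). The aligner and the peak caller: not given in the sources used here. The dm3 lists were not used.

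Summits were placed on Ensembl release 115 genes with Python 3.11.15, numpy 2.4.6 and pandas 2.3.3, and sequences came from the RefSeq Release 6 assembly; both annotations gave all 10 genes the same coordinates. Ranks between lists were matched to the nearest summit within 100 bp. Start sites were those of protein-coding transcripts, and promoters were 1000 bp to either side. Assignment and motif counts were tested on simulated data. The genes, the lists and the rules were chosen with earlier results of these data known. The text names the 10 genes, listed genes with a thresholded peak, the paralogues tio and salr, and any gene nearest to a summit inside a member. The share among genes with long territories was added after the data were seen. The listed symbol Dl was read as Delta. Genes named beyond that (exd, Scr, CG11629) were chosen after their values were seen. Alternatives were other assignments, depths, match distances, promoter and motif windows, and leaving out each replicate. Figures were drawn with matplotlib 3.10.9.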

Additional observations from a re-analysis of the deposited data

How the results depend on the processing

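The count of 5 peaks at 5 genes was the same with nearest start sites only, where 14.7% of all protein-coding genes had a peak. It fell to 4 genes with start sites within 5000 bp or the gene body, which drops the tsh peak, and there 15.2% of all had one. By gene body alone it was 2 peaks at 2 genes (bab1 and bab2), with 1 at a promoter, and 8 limb and 4 Hox genes had a peak, as did 9.02% of all protein-coding genes. Among thresholded peaks above the median rank of the list only dac remained (1 peak, 1 gene, 1 promoter, TAAT at 1), with 10 limb and 3 Hox genes and 1255 of the 13945 protein-coding genes. To rank 5000 of the combined list there were 14 regions, 6 of them at promoters, at 7 genes, and 26 limb genes had a region. Of all protein-coding genes 24.8% had one to that rank. A replicate was left out by keeping thresholded peaks found, to the same list length, in both other libraries. Without replicate 1, 2 or 3 in turn there were 2 peaks at 2 genes each time, those of tsh and dac, with 1 at a promoter and TAAT at 2. Hox genes with a peak numbered from 2 to 5 and limb genes from 11 to 12, where 9.62% to 10.5% of all protein-coding genes had one. With matches within 50 bp, 3 of the 5 peaks were found in all 3 libraries. The mean number of regions of the 10 genes per library was 107 in the full lists, 62.7 by gene body alone, 29.0 among the strongest 10000 and 5.67 to the length of the thresholded list. No paired analysis was possible because all 3 libraries belong to 1 group. The smaller sets have fewer peaks by construction. Read depth is unknown and limits how far a missing match can be read.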
